A study of Mus musculus with 12 samples.

Results

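Collagen chain genes were examined in a study of how adipocytes form with Acly intact or deleted. They were taken as every gene of the deposited table whose symbol reads Col, a number, a and a number, which gave 44 of 24341 genes. Of the 44, 11 encode fibrillar chains, 6 chains of the basement membrane collagen type IV, 6 chains of type VI, and 21 chains of other classes. The rule used names only and no measured value. RNA was sequenced from 12 libraries of mouse preadipocytes of the C57Bl/6 strain, which came from adipose tissue and had been immortalised with SV40, in 4 groups of 3. In Aclyf/f cells, the controls, Acly is intact but carries loxP sites, and Acly-/- cells lack the gene, Acly being the gene of ATP citrate lyase, which makes acetyl-CoA from citrate outside mitochondria. Preadipocytes of both genotypes were taken on day 0. Adipocytes of both genotypes were taken on day 4 after a standard adipogenic mixture that contained rosiglitazone. The sources used here do not give how Acly was deleted, whether each genotype is 1 line or clone, or whether replicates are separate cultures, so p-values measure only the spread between these libraries.

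A collagen molecule is a trimer of chains wound into a helix, and each chain has a gene of its own. Fibrillar collagens (types I, III, V, XI and others) form the rope-like fibrils of connective tissue, type IV collagen forms the network of the basement membrane that surrounds every adipocyte, and type VI collagen forms beaded microfilaments that are abundant in adipose tissue. Chains are hydroxylated and folded in the endoplasmic reticulum, then secreted, trimmed of their propeptides and cross-linked by lysyl oxidases. Fibroblast-like precursors are known for making fibrillar collagens and maturing adipocytes for building a basement membrane.

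The unit of every level is FPKM, which divides the fragments of a gene by its length and by the depth of the library, so that genes of different length can be set side by side. Depth, estimated from the steps between low values, was 7116000 to 13720000 fragments per library, and 1.93-fold between the deepest and the shallowest. Acly was at 86.9 ± 2.33 FPKM (SD, n = 3, as for every ± here) on day 0 and 754 ± 52.5 on day 4 in Aclyf/f cells, and at 12.1 ± 0.309 and 12.4 ± 1.17 in Acly-/- cells. Acly is counted here over all its exons, and which of them were deleted is not stated in the sources. Of 8 adipocyte markers 7 reached 1 FPKM (Lep was at the table's lowest value in all libraries), and their summed FPKM was 507 to 524 on day 0 and 11060 to 11620 on day 4 with Acly, against 195 to 230.4 and 5759 to 7143 without. Of 7 preadipocyte and fibroblast markers 5 reached 1 FPKM (Dlk1 and Thy1 did not). None of 7 epithelial and mesothelial markers, 1 of 7 endothelial markers and 2 of 8 macrophage and leukocyte markers did, and Ptprc, Itgam and Cdh5 were at the lowest value in all 12 libraries. Cd68, a lysosomal gene on the macrophage list, was at 32.6 ± 3.12 FPKM in Acly-/- adipocytes and at 1.27 to 3.44 in the other libraries. Acly-/- preadipocyte library 3 had the largest FPKM sum of all 12 and the highest Col1a1 and Col6a1.

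For 35 of the 44 genes RefSeq (GRCm38.p6, the same build as mm10) gave a start site, with 38 windows of 250 bases before it. The sequence before the start site is shown for Col3a1, Col6a2 and Col8a1, a fibrillar gene, a type VI gene and the gene with the largest fall on the log2(FPKM + 1) scale used below. These windows hold no annotated transcript, and the 3 genes fell by different amounts with differentiation. Each reads 5′ to 3′ on the gene's strand and ends 1 base before the start site, with matches to a motif in capitals: TATAAA in Col3a1, and GGGCGG, the GC box, in the others, where it lies on the opposite strand and reads CCGCCC.
Col3a1, chr1:45311288-45311537, plus strand: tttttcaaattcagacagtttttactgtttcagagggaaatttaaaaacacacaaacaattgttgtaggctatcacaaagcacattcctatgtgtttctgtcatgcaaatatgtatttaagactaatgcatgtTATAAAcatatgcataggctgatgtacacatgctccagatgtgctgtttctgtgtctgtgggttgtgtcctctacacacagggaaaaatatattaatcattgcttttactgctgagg
Col6a2, second start site, chr10:76623631-76623880, minus strand: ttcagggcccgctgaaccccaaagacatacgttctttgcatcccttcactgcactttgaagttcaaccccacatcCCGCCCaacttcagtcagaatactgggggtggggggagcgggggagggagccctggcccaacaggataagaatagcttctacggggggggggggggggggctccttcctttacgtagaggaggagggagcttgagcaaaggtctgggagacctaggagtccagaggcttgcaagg
Col8a1, chr16:57754738-57754987, minus strand: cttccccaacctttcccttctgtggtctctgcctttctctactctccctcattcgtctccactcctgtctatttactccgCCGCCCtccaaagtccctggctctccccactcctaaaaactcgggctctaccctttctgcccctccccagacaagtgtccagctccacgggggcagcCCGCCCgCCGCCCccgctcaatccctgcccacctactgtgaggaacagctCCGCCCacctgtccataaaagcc
The Col3a1 match spans 117 to 112 bases before the start site, and the window has a G and C content of 35.2%. The Col6a2 window shown holds 1 GC box (59.2% G and C) and that of Col8a1 holds 4 (60.8% G and C). The window of the other Col6a2 start site, 76623404, where the gene begins in the deposited data, holds 3 (64.4% G and C). Among the 38 windows 22 (57.9%) hold GGGCGG on either strand, against 32.7% of all 32851 windows in the table. Searched in the same way, CCAAT was found in 13 (34.2%, against 33.8% of all windows) and TATAAA in 5 (13.2%, against 12.4%). Matches may overlap one another, and a match is a run of letters and not evidence of a bound factor.

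Genes were tested where at least 3 of the 12 libraries reached 1 FPKM, which 23 of the 44 collagen genes and 11777 of all genes did. The 23 were 8 fibrillar, 3 type IV, 3 type VI and 9 other genes. The highest on day 0 were Col1a2, Col6a1 and Col1a1, with means of 1110, 1035 and 789.5 FPKM in Aclyf/f cells, and the lowest on day 4 were Col10a1 and Col24a1, close to 0.01, the lowest value of the table. Col24a1, Col10a1, Col7a1, Col8a2 and Col20a1 passed only through the group or stage where they were high: without the group of highest mean fewer than 3 libraries reached 1 FPKM, or none did in the stage of lower mean. Such genes had to differ, so these 5 are described without a test, and each count of calls is also given for the other 18.

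**Figure D1:**
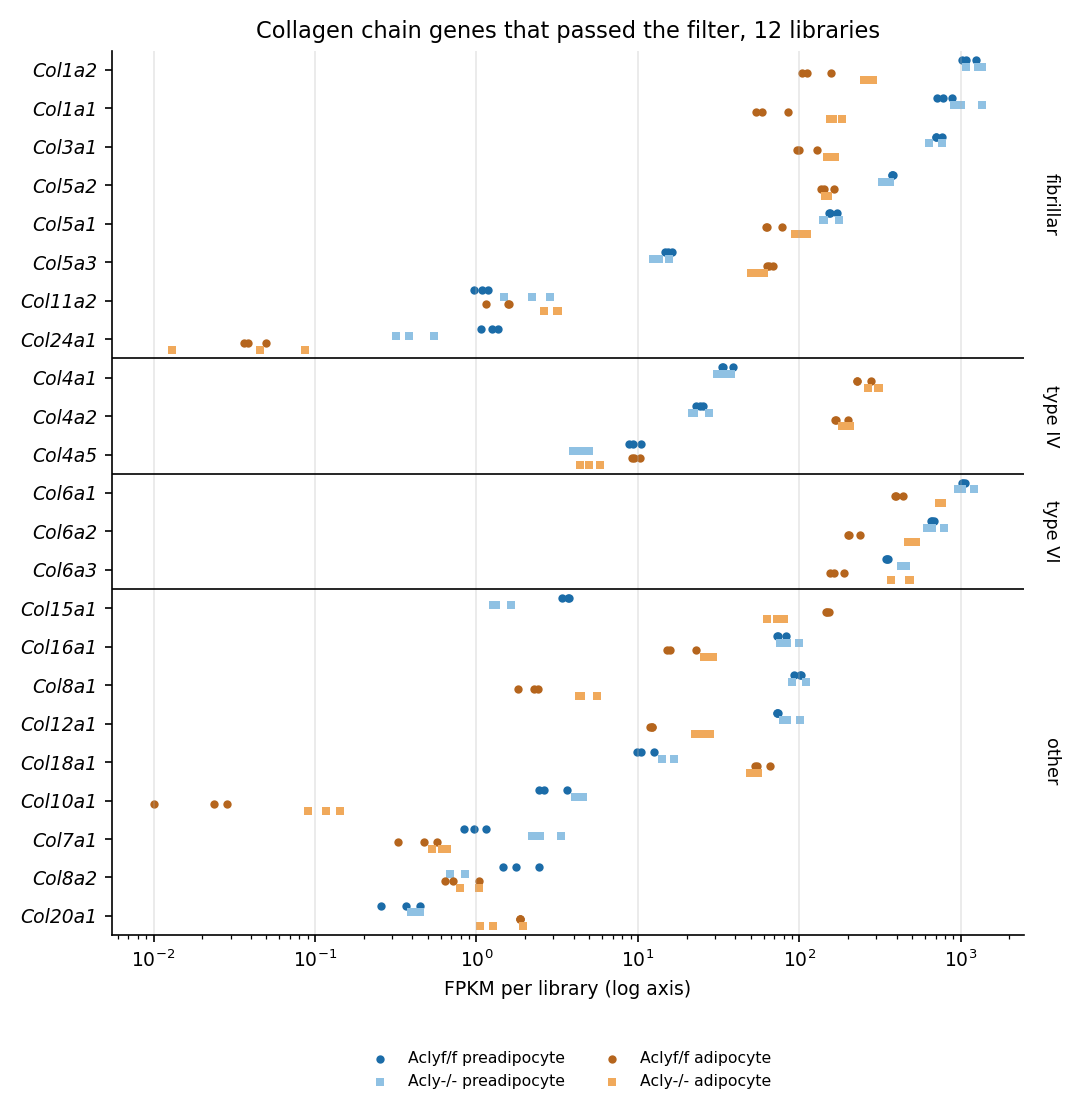
FPKM of the 23 tested collagen genes in each of the 12 libraries (log axis, 1 point per library, circles Aclyf/f and squares Acly-/-, blue preadipocytes and orange adipocytes), grouped by class. Orange points of Col1a1, Col1a2, Col3a1 and Col8a1 lie left of the blue ones, those of Col4a1, Col4a2 and Col15a1 lie right of them, and those of Col6a3 in Acly-/- cells overlap the blue ones.

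Below, values of single libraries are given in the order of libraries 1, 2 and 3, and cells with Acly are Aclyf/f and cells without it Acly-/-. Summed over its members, fibrillar collagen stood at 3451, 3102 and 2980 FPKM on day 0 and 682, 518 and 539.8 on day 4 with Acly, and at 3110, 3518 and 4025 on day 0 and 883, 957 and 859.5 on day 4 without it. Type VI collagen stood at 2024, 2090 and 2034 FPKM on day 0 and 864, 754 and 758 on day 4 with Acly, and at 2043, 2100 and 2444 on day 0 and 1720, 1784 and 1570 on day 4 without it. For both classes all preadipocyte libraries lay above all adipocyte libraries, with the narrowest gap for type VI in Acly-/- cells (1570 to 1784 on day 4, against 2043 as the lowest sum on day 0), and Acly-/- adipocytes lay above Aclyf/f adipocytes without overlap. Type IV collagen had the opposite order of stages, at 68.8 ± 4.96 FPKM on day 0 and 432 ± 48.4 on day 4 with Acly, and at 62.5 ± 5.94 and 495 ± 37.9 without it. The other classes together stood at 270.1 ± 12.8 FPKM on day 0 and 243 ± 14.6 on day 4 with Acly, and at 298 ± 5.79 and 185 ± 14.5 without it, with Acly-/- adipocytes below every other group. The day 4 order of this sum follows Col15a1, at 149 FPKM with Acly and 71.8 without, while Col8a1, Col12a1 and Col16a1 were higher without Acly. All collagen genes together were 2.72-fold lower on day 4 than on day 0 with Acly and 1.87-fold lower without. These are sums given without a test.

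The make-up of the collagen message differed between stages and, in adipocytes, between genotypes. Fibrillar chains were 57 ± 1.85% of summed collagen FPKM in Aclyf/f preadipocytes and 58.1 ± 1.35% in Acly-/- preadipocytes, and 28.2 ± 1.36% and 27.5 ± 0.802% in adipocytes. Type IV chains were 1.24% and 1.02% of it on day 0 and 21.1 ± 0.298% and 15.1 ± 0.422% on day 4, with and without Acly. Type VI held 36.9 ± 1.89% and 36 ± 1.03% of the message in preadipocytes, and 38.8 ± 0.966% and 51.7 ± 0.197% in adipocytes, with and without Acly. In all 3 Acly-/- adipocyte libraries type VI was more than the other classes together, which was so in no other library. A share depends on the sums of the other classes as well as on its own.

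**Figure D2:**
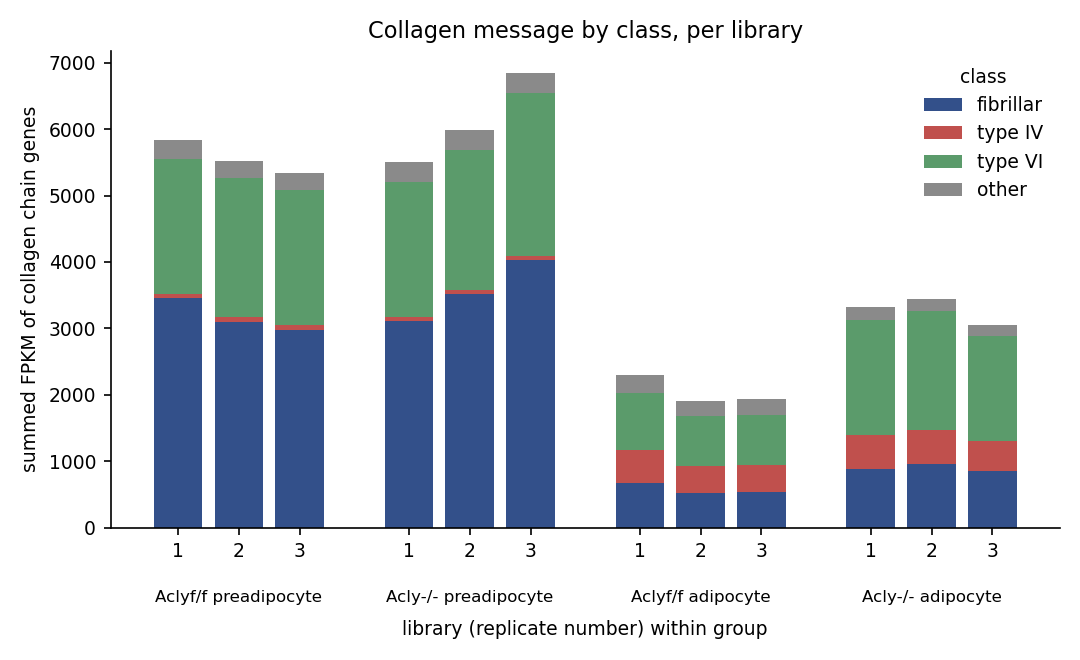
Summed FPKM of collagen genes in each library, stacked by class, for the 4 groups of 3 libraries. The bars are 5345 to 6837 FPKM high in preadipocytes, 1912 to 2293 in adipocytes with Acly and 3050 to 3450 in those without, where the type VI segment is 1570 to 1784 FPKM against 754 to 864.

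The first comparison asked how collagen genes changed from day 0 to day 4 in cells with Acly. The fibrillar genes Col1a1, Col1a2 and Col3a1, the type VI genes and Col8a1 fell, and Col4a1, Col4a2, Col15a1, Col18a1 and Col5a3 rose. In limma on log2(FPKM + 1), with Benjamini-Hochberg adjustment over the 11777 genes and a call at an adjusted p under 0.05, 15 of the 23 fell, 6 rose and 2 (Col4a5 and Col11a2) were not called. That is 91.3% called either way, against 72.5% of all genes tested (36.5% higher, 36.0% lower), and the median change was -1.09, against 0.00 over all genes. Of the 18 genes left without those that passed through 1 group or stage, 11 fell and 5 rose (88.9%, against 71.9% of all genes left by the same rule, 36.2% higher and 35.7% lower), with a median of -1.28. The libraries of both stages did not overlap for 21 of the 23 genes, as for 75.7% of all genes. Most genes of any kind were called here, so the number of calls says little about collagens as such. By class, with Col24a1 counted among fibrillar genes and the other genes that passed through 1 group or stage among the others, 6 of 8 fibrillar, 0 of 3 type IV, 3 of 3 type VI and 6 of 9 other genes fell, and 1, 2, 0 and 3 rose. The fibrillar falls include Col24a1, the other falls Col10a1, Col8a2 and Col7a1, and the other rises Col20a1, all only as a description. In these bulk libraries fewer cells of a type and less RNA per cell cannot be told apart. The summed FPKM of the preadipocyte and fibroblast markers was 645 to 747 in Aclyf/f preadipocytes and 151 to 222 in Aclyf/f adipocytes. Of the 4 tested among them 3 fell and 1 rose. Markers of smooth muscle and pericytes summed to 418 to 434 on day 0 and to 22.2 to 34.9 on day 4. The sum does not hold for each of them: of the 5 tested, 3 fell and 2 rose. Of these 5, 4 passed the filter only through 1 group or stage, as did 2 of 4 tested markers of cartilage and bone. Those of cartilage and bone, of which 4 of 9 reached 1 FPKM and Acan was at 0.01 throughout, summed to 17.7 to 18.8 and to 9.33 to 10.5. The part of these markers in the fall was not tested.

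In Acly-/- cells 13 of the 23 genes fell, 7 rose and 3 (Col6a3, Col8a2 and Col4a5) were not called with differentiation. That is 87.0% called, against 61.4% of all genes (30.4% higher, 31.0% lower). Of the 18 genes 10 fell and 6 rose (88.9%, against 60.6%, 30.1% higher and 30.5% lower), with a median of -0.47. The median change of the 23 was -0.45, against 0.00 over all genes, and stages did not overlap for 19 genes (64.6% of all genes). Fibrillar genes split 6 lower to 2 higher, type IV 0 to 2, type VI 2 to 0 and other genes 5 to 3. These counts include genes that passed the filter through 1 group or stage, as a description. They are Col24a1 among the fibrillar falls, Col10a1 and Col7a1 among the other falls and Col20a1 among the other rises. The seventh rise was Col11a2 (0.35, adjusted p = 0.0479), whose libraries overlapped between stages and whose call was lost without Acly-/- preadipocyte library 1 (0.18, adjusted p = 0.239). It was also lost without any of Aclyf/f preadipocyte libraries 1, 2 and 3, Acly-/- preadipocyte library 2, Aclyf/f adipocyte libraries 1 and 3 and Acly-/- adipocyte libraries 1 and 2 (adjusted p 0.0528 to 0.129). Pseudocounts of 0.1 and 0.5 FPKM, no filter, median-of-ratios rescaling, a replicate block and a fit of Acly-/- cells alone removed it too (adjusted p 0.0523 to 0.138). Marker sums of preadipocytes and fibroblasts were 839 to 1160 before and 726 to 769 after, those of smooth muscle and pericytes 126 to 140.4 and 46.5 to 55.0, and those of cartilage and bone 27.95 to 29.93 and 16.3 to 18.3. In the same order, 2 of 4, 2 of 5 and 3 of 4 tested markers fell, and 1, 2 and 1 rose. The part of these markers in these changes was not tested.

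The difference between both differentiation changes was tested directly, as the change in Acly-/- cells minus that in Aclyf/f cells. It was positive and called for 11 genes, and negative and called for 2, of the 23 (56.5%, against 50.2% of all genes, 23.7% positive and 26.4% negative), with a median of 0.42 against -0.02 over all genes. The 11 were 5 fibrillar genes (Col1a1, Col1a2, Col3a1, Col5a1 and Col24a1), the 3 type VI genes, and Col8a1, Col12a1 and Col8a2. Of the 18 genes 9 were called positive and 1 negative (55.6%, against 49.4%, 23.7% positive and 25.7% negative), with a median of 0.49. The 9 all fell in Aclyf/f cells, and in Acly-/- cells 8 of them fell less and Col6a3 was not called. Col18a1 rose less in Acly-/- cells. No type IV gene was called, with differences of 0.31 for Col4a1 (adjusted p = 0.0927), 0.17 for Col4a2 (0.326) and 0.12 for Col4a5 (0.518). That of Col4a1 was called without Acly-/- preadipocyte library 3 (0.38, adjusted p = 0.045) or Aclyf/f adipocyte library 1 (0.40, adjusted p = 0.0282), and with quantile normalization (0.35, adjusted p = 0.0393).

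**Figure D3:**
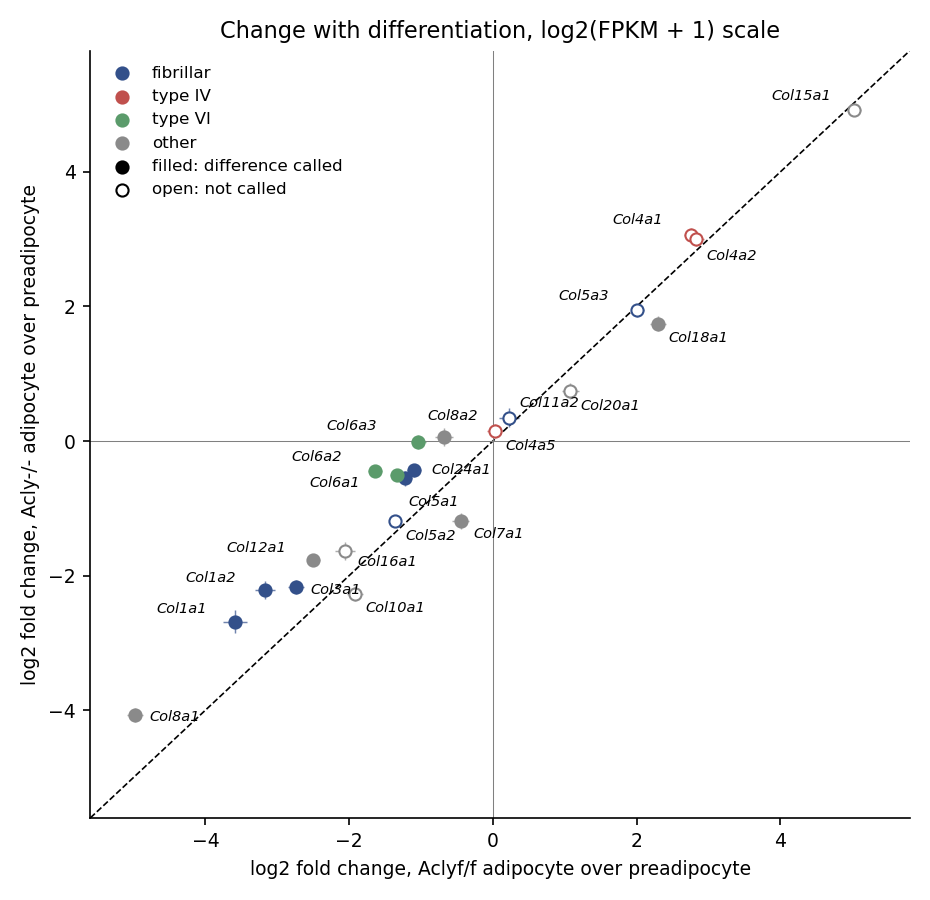
Log2 fold change with differentiation on the log2(FPKM + 1) scale, Aclyf/f cells on the x axis and Acly-/- cells on the y axis, for the 23 tested genes coloured by class (bars: SE, dashed line: equal change, filled points: the difference between both changes was called). The 3 type VI points lie above the line with an Aclyf/f change of -1.04 to -1.64, while Col4a1, Col4a2 and Col15a1 lie close to it in the upper right. The filled points of Col24a1, Col8a2 and Col7a1, which passed the filter through 1 group or stage, are a description.

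On day 0 no difference between genotypes was called for Col1a2, Col3a1, Col5a1, Col5a2, Col4a1, Col4a2, Col6a1 or Col6a2. Of the 23 genes 7 were higher and 4 lower in Acly-/- preadipocytes (47.8% called, against 42.2% of all genes, 19.7% higher and 22.4% lower), with a median difference of 0.03 against -0.01 over all genes. Of the 18 genes 5 were higher and 2 lower (38.9%, against 42.2%, 19.9% higher and 22.3% lower), with a median of 0.01. Genotypes did not overlap for 12 of the 23 genes (49.9% of all genes). The split depended on scaling: with libraries rescaled to the same FPKM sum it was 4 higher and 6 lower, and with quantile normalization 5 and 5. On the log2(FPKM + 1) scale the largest called differences among the 18 were in Col4a5, Col15a1 and Col11a2. By class, 2 fibrillar genes were higher and 1 lower of 8, no type IV gene was higher and 1 lower of 3, 1 type VI gene was higher of 3, and 4 other genes were higher and 2 lower of 9. The lower fibrillar gene was Col24a1, and the other genes include Col7a1 and Col10a1 (higher) and Col8a2 (lower). These passed the filter through 1 group or stage and are a description. Markers of smooth muscle and pericytes, of which 5 of 7 reached 1 FPKM and Rgs5 and Cspg4 did not, summed to 418 to 434 FPKM in Aclyf/f and 126 to 140.4 in Acly-/- preadipocytes. Markers of cartilage and bone summed to 17.7 to 18.8 and 27.95 to 29.93, and those of preadipocytes and fibroblasts to 645 to 747 and 839 to 1160. Single markers did not all follow their sum: Pdgfra was at 131 FPKM with Acly and 72.1 without it. In the order given, 0 of 5, 3 of 4 and 3 of 4 tested markers were higher without Acly, and 3, 1 and 1 lower. The part of these markers in these differences was not tested.

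On day 4, cells without Acly had higher levels of all 3 tested type VI genes, of Col1a1, Col1a2, Col3a1 and Col5a1, and of Col8a1, Col12a1 and Col16a1. Of the 23 genes 12 were higher and 3 (Col15a1, Col4a5 and Col5a3) lower (65.2% called, against 54.8% of all genes, 25.6% higher and 29.2% lower). All 15 called genes are among the 18 (83.3%, against 55.1% of all genes left by the same rule, 26.1% higher and 29.0% lower), whose median was 0.60. The median difference of the 23 was 0.26 against -0.02 over all genes, and genotypes did not overlap for 15 genes (63.2% of all genes). By class the counts were 5 higher and 1 lower of 8 fibrillar genes, 1 and 1 of 3 type IV genes, 3 and 0 of 3 type VI genes, and 3 and 1 of 9 others, with median differences of 0.58, 0.15, 1.23 and 0.13. Summed preadipocyte and fibroblast markers were 151 to 222 FPKM in Aclyf/f and 726 to 769 in Acly-/- adipocytes, smooth muscle and pericyte markers 22.2 to 34.9 and 46.5 to 55.0, and cartilage and bone markers 9.33 to 10.5 and 16.3 to 18.3. In the same order, 4 of 4, 2 of 5 and 2 of 4 tested markers were higher without Acly, and 0, 1 and 0 lower. Adipocyte markers summed to 11060 to 11620 and 5759 to 7143, most of it Fabp4 with means of 8835 and 6113. All 7 tested adipocyte markers were lower without Acly, with a median of -2.04. Since 3 of these 7 passed the filter only through 1 group or stage, this count and median are a description. Macrophage and leukocyte markers summed to 2.42 to 3.58 and 30.6 to 36.3, nearly all of it Cd68 without Acly. The part of these markers in the collagen differences was not tested. Each genotype comparison shares its samples with the differentiation comparisons, so their values for a gene are given side by side below and are not separate evidence.

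**Figure D4:**
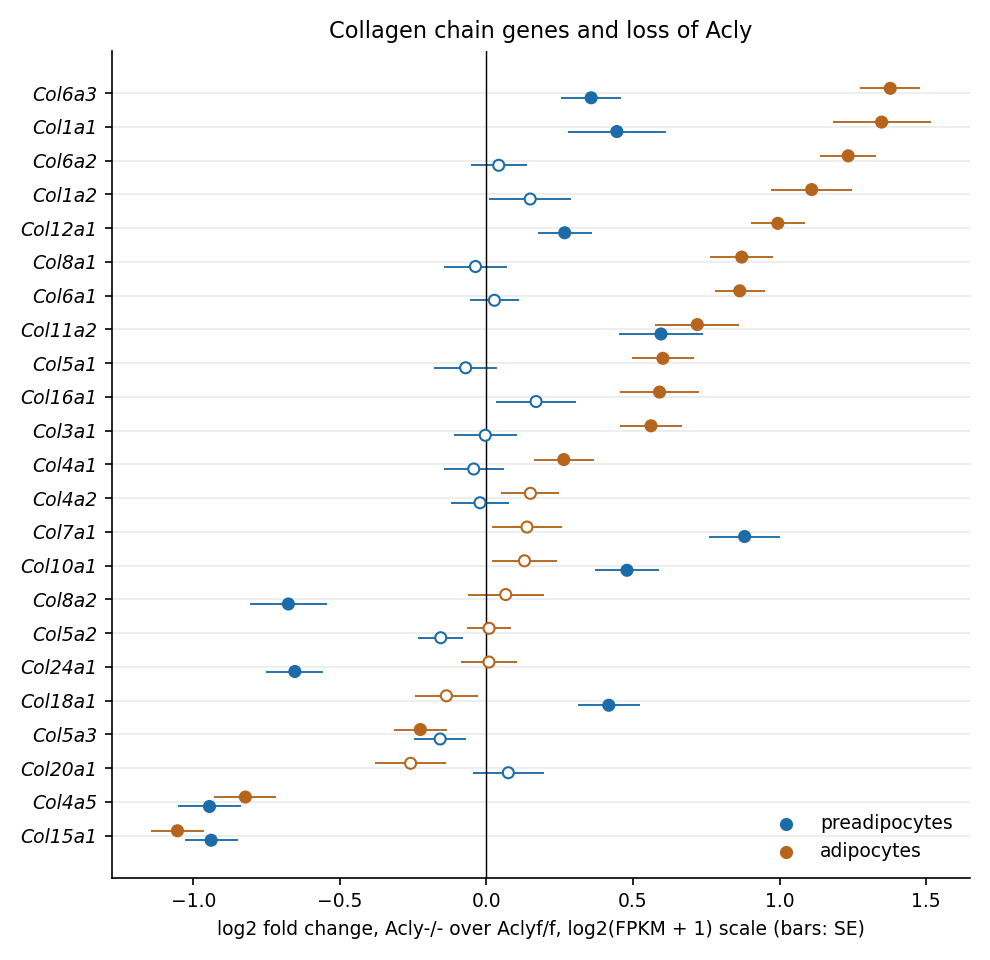
Log2 fold change of Acly-/- over Aclyf/f cells on the log2(FPKM + 1) scale in preadipocytes (blue) and adipocytes (orange) for the 23 tested genes, ordered by the adipocyte value (bars: SE, filled points: called by limma). Col6a3, Col1a1, Col6a2 and Col1a2 lie above 1 in adipocytes and no higher than 0.45 in preadipocytes, while Col4a5 and Col15a1 lie between -0.82 and -1.05 at both stages. The filled preadipocyte points of Col24a1, Col8a2, Col10a1 and Col7a1, which passed the filter through 1 group or stage, are a description.

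Among fibrillar genes, Col1a1 (chromosome 11, 94936270 to 94951856, mm10) encodes the chain present in most copies in type I collagen. Col1a1 was at 883, 775 and 710.2 FPKM on day 0 and 84.9, 53.7 and 58.8 on day 4 with Acly, and at 911, 996 and 1353 on day 0 and 154, 183 and 162 on day 4 without it. Stages were far apart in both genotypes, and in adipocytes every Acly-/- library was above every Aclyf/f library, of which library 1 was the highest. It fell 12-fold in Aclyf/f cells (-3.59, SE 0.17, adjusted p = 2.2e-10) and 6.54-fold in Acly-/- cells (-2.68, adjusted p = 1.18e-08), and the difference between both changes was 0.90 (SE 0.24, adjusted p = 0.00657). In adipocytes it was 2.53-fold higher without Acly (1.35, adjusted p = 1.59e-05). In preadipocytes the groups did not overlap but the call was narrow (0.45, SE 0.17, adjusted p = 0.047). Without Acly-/- preadipocyte library 3, the highest of the group, it was 0.28 (adjusted p = 0.203). The call was also lost without any of Aclyf/f preadipocyte libraries 2 and 3, Acly-/- preadipocyte library 2, Aclyf/f adipocyte library 3 and Acly-/- adipocyte libraries 1, 2 and 3 (adjusted p 0.0515 to 0.145), and with libraries rescaled to the same FPKM sum (0.35, adjusted p = 0.0583). Without a filter or a variance trend, with quantile normalization, a replicate block or a fit of preadipocytes alone, it was lost as well (adjusted p 0.0546 to 0.184).

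Its partner Col1a2 (chromosome 6, 4505697 to 4541543), which supplies the other chain of type I collagen, was at 1236, 1076 and 1017 FPKM on day 0 and 156, 104 and 111 on day 4 with Acly, and at 1069, 1281 and 1348 on day 0 and 250, 285 and 258 on day 4 without it. The preadipocyte genotypes overlapped and the adipocyte genotypes did not. Col1a2 fell 8.96-fold with Acly and 4.66-fold without (difference 0.96, SE 0.20, adjusted p = 0.00133). Without Acly it was 2.14-fold higher in adipocytes (adjusted p = 1.7e-05), and in preadipocytes no difference was called (0.15, adjusted p = 0.416).

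Col3a1 (chromosome 1, 45311538 to 45349706), the gene of type III collagen, which mixes with type I in fibrils, was at 759.5, 701 and 705 FPKM on day 0 and 128, 96 and 100 on day 4 with Acly, and at 637, 762 and 767 on day 0 and 162, 166 and 148 on day 4 without it. Preadipocytes of both genotypes overlapped, with means of 722 and 722. The fall was 6.68-fold in Aclyf/f and 4.54-fold in Acly-/- cells (difference 0.57, adjusted p = 0.00753), and adipocytes without Acly were 1.47-fold higher (0.56, adjusted p = 0.000613).

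Type V collagen, which starts fibrils and limits their width, has 3 chains, and they did not move together. Col5a1 (chromosome 2, 27886425 to 28039510) was at 170.3, 155 and 153 FPKM on day 0 and 77.8, 62.8 and 62.5 on day 4 with Acly, and at 142, 140.1 and 175 on day 0 and 103, 111 and 94.2 on day 4 without it, and fell 2.35-fold with Acly and 1.48-fold without (difference 0.67, adjusted p = 0.00243). Col5a2 (chromosome 1, 45374331 to 45503282) was at 382, 375 and 377 FPKM on day 0 and 164, 136 and 142 on day 4 with Acly, and at 334, 323 and 362 on day 0 and 148, 151 and 144 on day 4 without it. The adipocyte libraries of Col5a2 overlapped between genotypes (0.01, adjusted p = 0.929), and it fell by 1.36 and 1.20 on the log2 scale with differentiation, a difference of 0.16 that was not called (adjusted p = 0.22) but was with quantile normalization (0.25, adjusted p = 0.0469). In preadipocytes the genotypes of Col5a2 did not overlap, with Acly-/- libraries lower, but the difference was not called (-0.16, adjusted p = 0.119). It was called with libraries rescaled to the same FPKM sum (-0.25, adjusted p = 0.0145) and with quantile normalization (-0.21, adjusted p = 0.0253). Col5a1 in adipocytes, by contrast, was 1.52-fold higher without Acly (adjusted p = 0.000327).

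Col5a3, the third type V chain, rose instead. It was at 15.5 ± 0.798 and 13.8 ± 1.6 FPKM in preadipocytes and at 65.2 ± 2.68 and 55.8 ± 5.02 in Aclyf/f and Acly-/- adipocytes, 4.21-fold and 4.04-fold higher (adjusted p = 1.33e-10 and 5.1e-10). It was the only one of the 8 tested fibrillar genes to rise in Aclyf/f cells. In adipocytes it was lower without Acly (-0.23, adjusted p = 0.0466), a call lost without Acly-/- adipocyte library 3 (-0.16, adjusted p = 0.182). It was also lost without any of Aclyf/f preadipocyte libraries 1, 2 and 3, Acly-/- preadipocyte library 1, Aclyf/f adipocyte libraries 1, 2 and 3 and Acly-/- adipocyte library 2 (adjusted p 0.051 to 0.128). Processing mattered too: the call was lost with a pseudocount of 0.1 FPKM, without a filter and with quantile normalization. The same held for median-of-ratios rescaling, no variance trend and a replicate block (adjusted p 0.0513 to 0.125 over these settings). In preadipocytes the genotypes were not called different (-0.16, adjusted p = 0.175), except without Acly-/- preadipocyte library 3 (-0.24, adjusted p = 0.041) and with libraries rescaled to the same FPKM sum (-0.24, adjusted p = 0.0435).

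The rarer fibrillar genes stood at low levels. Col11a2, a chain of type XI collagen, was at 1.07 ± 0.103 FPKM in Aclyf/f and 2.18 ± 0.683 in Acly-/- preadipocytes (0.60, adjusted p = 0.00446), and at 1.43 ± 0.248 and 2.99 ± 0.326 in adipocytes (0.72, adjusted p = 0.000817). Acly-/- libraries were above Aclyf/f libraries at both stages without overlap. Col24a1 was at 1.23 ± 0.14 FPKM in Aclyf/f and 0.416 ± 0.116 in Acly-/- preadipocytes (-0.65, without overlap) and at 0.0365 to 0.05 and 0.0129 to 0.087 in adipocytes, about 3.6 fragments a library on average in either genotype, so no fold is given. The difference in its differentiation changes (0.66) therefore rests on the preadipocyte level, through which the gene passed the filter, and has no test here. Col2a1, Col11a1 and Col27a1 did not pass the filter and reached 0.211, 0.0946 and 1.04 FPKM at most.

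Among type IV genes, Col4a1 and Col4a2 encode the chains of the common basement membrane trimer and lie head to head on chromosome 8, Col4a1 from 11198423 to 11312826 and Col4a2 from 11312829 to 11449287. Col4a1 was at 38.9, 33.1 and 33.5 FPKM on day 0 and 277, 229 and 227 on day 4 with Acly, and at 31.1, 33.6 and 37.6 on day 0 and 309, 305 and 264 on day 4 without it. Col4a2 was at 25.1, 24.3 and 22.8 FPKM on day 0 and 201, 169 and 165 on day 4 with Acly, and at 22.3, 21.7 and 27.5 on day 0 and 203, 206 and 183 on day 4 without it. Stages were far apart for both genes, and in preadipocytes the genotypes overlapped for both. Col4a1 rose 6.95-fold with Acly (2.76, SE 0.10, adjusted p = 2.02e-11) and 8.59-fold without (3.07, adjusted p = 1.91e-11), and Col4a2 rose 7.4-fold and 8.29-fold (adjusted p = 1.12e-11 and 1.71e-11). In adipocytes Col4a1 was 1.2-fold higher without Acly, with overlapping libraries (0.26, adjusted p = 0.0421), and the call was lost with libraries rescaled to the same FPKM sum (0.18, adjusted p = 0.14). It was also lost without any of Acly-/- preadipocyte library 2, Aclyf/f adipocyte libraries 2 and 3 and Acly-/- adipocyte libraries 1 and 2 (adjusted p 0.0518 to 0.141). The same held without a filter, without a variance trend and with a replicate block (adjusted p 0.0523 to 0.129). For Col4a2 no difference was called in adipocytes (0.15, adjusted p = 0.216).

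Col4a5 (chromosome X, 141475419 to 141689235), whose chain assembles with those of Col4a3 and Col4a4 or of Col4a6, differed by genotype, with no called change by stage. It was at 10.4, 9.33 and 8.74 FPKM on day 0 and 10.4, 9.23 and 9.51 on day 4 with Acly, and at 4.45, 4.98 and 3.94 on day 0 and 4.99, 5.83 and 4.4 on day 4 without it. All 6 Acly-/- libraries lay below all 6 Aclyf/f libraries. It was 2.13-fold lower without Acly in preadipocytes (-0.94, SE 0.11, adjusted p = 1.08e-05) and 1.91-fold lower in adipocytes (-0.82, adjusted p = 2.22e-05). No change with differentiation was called in either genotype (0.03, adjusted p = 0.812, and 0.15, adjusted p = 0.23). Its partners Col4a3, Col4a4 and Col4a6 did not pass the filter, with highest values of 0.0931, 0.0376 and 0.111 FPKM.

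Type VI collagen is built from the chains of Col6a1, Col6a2 and Col6a3, the last being the source of a soluble fragment known in adipose tissue as endotrophin. Col6a1 (chromosome 10, 76708792 to 76726044) was at 1018, 1060 and 1027 FPKM on day 0 and 437, 396 and 393 on day 4 with Acly, and at 963, 1016 and 1199 on day 0 and 733, 769 and 729.8 on day 4 without it. The Acly-/- adipocyte libraries lay between those of Aclyf/f adipocytes and all preadipocytes. It fell 2.53-fold with Acly (-1.34, adjusted p = 5.47e-09) and 1.42-fold without (-0.50, adjusted p = 0.000158), a difference of 0.84 (SE 0.12, adjusted p = 7.76e-05).

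Col6a2 (chromosome 10, 76595756 to 76623404), which lies 85161 bases from Col6a1 on the same strand, was at 653, 682 and 665 FPKM on day 0 and 238, 203 and 201 on day 4 with Acly, and at 621, 659 and 789 on day 0 and 511, 529 and 473 on day 4 without it. Its order of groups was that of Col6a1, with the larger genotype gap in adipocytes. It fell 3.11-fold with Acly and 1.37-fold without, the widest called difference between both changes among collagen genes on the log2(FPKM + 1) scale (1.19, SE 0.13, adjusted p = 1.01e-05). In adipocytes Col6a1 was 1.82-fold and Col6a2 2.35-fold higher without Acly (adjusted p = 1.81e-06 and 1.8e-07). In preadipocytes neither was called (0.03, adjusted p = 0.821, and 0.04, adjusted p = 0.754).

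Col6a3 (chromosome 1, 90766860 to 90843971) was at 354, 348 and 342 FPKM on day 0 and 188, 155 and 164 on day 4 with Acly, and at 459, 424 and 455 on day 0 and 476, 487 and 367 on day 4 without it. In Aclyf/f cells the stages were apart, and in Acly-/- cells they overlapped. It fell 2.06-fold in Aclyf/f cells (-1.04, SE 0.10, adjusted p = 6.35e-07) and was not called in Acly-/- cells (-0.02, SE 0.10, adjusted p = 0.879). The difference between both changes was 1.02 (SE 0.15, adjusted p = 7.6e-05). Adipocytes without Acly were 2.62-fold higher (1.38, adjusted p = 1.31e-07), the widest genotype difference of the 23 genes in adipocytes on the log2(FPKM + 1) scale. Preadipocytes without Acly were 1.28-fold higher (0.36, adjusted p = 0.0133), a call lost with libraries rescaled to the same FPKM sum (0.27, adjusted p = 0.079) and without a filter (adjusted p = 0.0533). Col6a4, Col6a5 and Col6a6, neighbours on chromosome 9, did not pass the filter and reached 0.203, 0.0294 and 0.0756 FPKM.

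Among the other classes, the multiplexins Col15a1 and Col18a1, whose products sit in or beside basement membranes, rose with differentiation. Col15a1 (chromosome 4, 47208012 to 47313165) was at 3.39, 3.69 and 3.73 FPKM on day 0 and 153, 147 and 148 on day 4 with Acly, and at 1.26, 1.63 and 1.32 on day 0 and 80, 72.3 and 63 on day 4 without it. Aclyf/f libraries were above Acly-/- libraries at both stages, and adipocytes were far above preadipocytes. It rose 41.5-fold with Acly (5.03, adjusted p = 1.64e-14) and 51.1-fold without (4.92, adjusted p = 6.3e-14), the widest rise of the 23 genes in both genotypes, and no difference between the log2 changes was called (-0.11, adjusted p = 0.473). Without Acly it was 2.56-fold lower in preadipocytes (-0.94, adjusted p = 2.56e-06) and 2.08-fold lower in adipocytes (-1.05, adjusted p = 4.97e-07). Col18a1, the source of endostatin, was at 11 ± 1.43 and 15 ± 1.61 FPKM in preadipocytes and 57.9 ± 6.79 and 52.5 ± 3.12 in adipocytes. It was higher without Acly in preadipocytes (0.42, adjusted p = 0.00657) and rose less without Acly (difference -0.55, adjusted p = 0.008). Its 2 adipocyte groups overlapped.

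The short-chain collagens form hexagonal or open networks. Col8a1 (chromosome 16, 57624256 to 57754737) was at 102, 92.3 and 101 FPKM on day 0 and 2.39, 1.82 and 2.27 on day 4 with Acly, and at 89.9, 109 and 89.5 on day 0 and 4.46, 5.57 and 4.32 on day 4 without it. Preadipocyte genotypes overlapped, and the low adipocyte levels were higher in every Acly-/- library. On the log2(FPKM + 1) scale the fall was the widest of the 23 genes in both genotypes, 45.6-fold with Acly (-4.98, SE 0.11, adjusted p = 9.19e-14) and 20.1-fold without (-4.07, adjusted p = 1.84e-12), with a difference of 0.91 (adjusted p = 0.000268). Its type VIII partner Col8a2 (chromosome 4, 126286794 to 126314330) was at 2.45, 1.75 and 1.46 FPKM on day 0 and 1.03, 0.636 and 0.714 on day 4 with Acly, and at 0.685, 0.849 and 0.846 on day 0 and 0.79, 0.791 and 1.04 on day 4 without it. Aclyf/f preadipocytes, through which the gene passed the filter, stood above all other libraries, with genotype differences of -0.68 in preadipocytes and 0.07 in adipocytes, given without a test. Col10a1, known from hypertrophic cartilage, was at 2.9 ± 0.646 and 4.39 ± 0.284 FPKM in preadipocytes and at 0.01 to 0.0287 and 0.0911 to 0.143 in adipocytes, where 0.67 and 3.71 fragments a library lay behind it, so no fold is given. Every preadipocyte library lay above every adipocyte library, and Acly-/- libraries above Aclyf/f libraries at both stages. The size of the adipocyte difference depended on the pseudocount, at 0.13 with 1 FPKM and 0.84 with 0.1 FPKM, and is given without a test. Col10a1 lies within Nt5dc1 on the opposite strand, and the sources used here do not give how strand was handled, so reads of both genes may not be separated.

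Of the fibril-associated collagens, Col12a1 and Col16a1 fell with differentiation. Col12a1 was at 72.9 ± 0.687 FPKM in Aclyf/f and 88.4 ± 11.4 in Acly-/- preadipocytes and at 12.1 ± 0.191 and 25.2 ± 2.73 in adipocytes, a fall of 6.03-fold and 3.51-fold (difference 0.73, adjusted p = 0.000495). It was higher without Acly in adipocytes (0.99, adjusted p = 1.11e-06) and in preadipocytes (0.27, adjusted p = 0.0331). The preadipocyte call was lost without Acly-/- preadipocyte library 1 (0.17, adjusted p = 0.146) or any Aclyf/f preadipocyte library (adjusted p 0.0627 to 0.0797). It was also lost with libraries rescaled to the same FPKM sum (adjusted p = 0.289). No filter, quantile normalization and a fit of preadipocytes alone removed it too (adjusted p 0.0593 to 0.0871). Col16a1 was at 76.5 ± 5.88 FPKM on day 0 and 17.9 ± 4.23 on day 4 with Acly, and at 86.5 ± 12 and 27.1 ± 1.9 without it. It was 1.51-fold higher without Acly in adipocytes (adjusted p = 0.00234), and its differentiation changes were not called different (0.42, adjusted p = 0.0835). They were called without Aclyf/f adipocyte library 1 (0.60, adjusted p = 0.00473) or Acly-/- preadipocyte library 3 (0.53, adjusted p = 0.0373), and with quantile normalization (0.52, adjusted p = 0.0309). Col20a1, which passed the filter through adipocytes, went from 0.357 to 1.86 FPKM with Acly and from 0.427 to 1.42 without, with no overlap between stages. Its genotypes overlapped at both stages.

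Col7a1 (chromosome 9, 108953745 to 108984875), the anchoring fibril collagen of skin, was at 0.967, 0.834 and 1.15 FPKM on day 0 and 0.566, 0.471 and 0.329 on day 4 with Acly, and at 2.46, 2.22 and 3.35 on day 0 and 0.61, 0.528 and 0.659 on day 4 without it. Acly-/- preadipocytes, through which the gene passed the filter, stood above every other group, 2.72-fold above Aclyf/f preadipocytes (0.88). In adipocytes the genotypes overlapped (0.14). These values carry no test.

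Of the 21 genes that did not pass the filter, Col28a1, Col9a3 and Col27a1 came closest, with highest values of 1.32, 1.15 and 1.04 FPKM. For Col28a1 and Col9a3 that value was in an Acly-/- preadipocyte library. Col9a1, Col13a1, Col19a1 and Col26a1 were at the lowest value of the table, 0.01, in all 12 libraries. Col9a2, Col14a1, Col17a1, Col22a1, Col23a1 and Col25a1 reached 0.033, 0.194, 0.232, 0.226, 0.127 and 0.0142 FPKM at most.

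Ratios between chains that share a trimer or a type were computed in each library. Col4a2 to Col4a1 varied little, between 0.675 and 0.73 as group means and 0.647 to 0.737 over all 12 libraries, while both genes rose several-fold. Col1a2 to Col1a1 was 1.41 ± 0.023 on day 0 and 1.89 ± 0.0484 on day 4 with Acly, and 1.15 ± 0.146 and 1.59 ± 0.0305 without. Acly-/- libraries had the lower ratio at both stages and adipocytes the higher ratio in both genotypes. For Col6a2 to Col6a1 the ratio was 0.641 to 0.648 and 0.645 to 0.658 in preadipocytes, and 0.511 to 0.546 with Acly and 0.648 to 0.697 without it in adipocytes. Aclyf/f adipocytes thus lay below all other libraries. Col6a3 to Col6a1 was 0.336 ± 0.0104 in Aclyf/f preadipocytes and 0.595 ± 0.0799 in Acly-/- adipocytes, with 0.425 ± 0.0492 in Acly-/- preadipocytes and 0.413 ± 0.0191 in Aclyf/f adipocytes. In type V, Col5a2 to Col5a1 was 2.38 ± 0.119 on day 0 and 2.18 ± 0.0798 on day 4 with Acly, and 2.24 ± 0.151 and 1.44 ± 0.0813 without. Col5a3 to Col5a1 was 0.0972 ± 0.00185 on day 0 and 0.971 ± 0.0824 on day 4 with Acly, and 0.0909 ± 0.00337 and 0.542 ± 0.0384 without. The ratios carry no test.

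**Figure D5:**
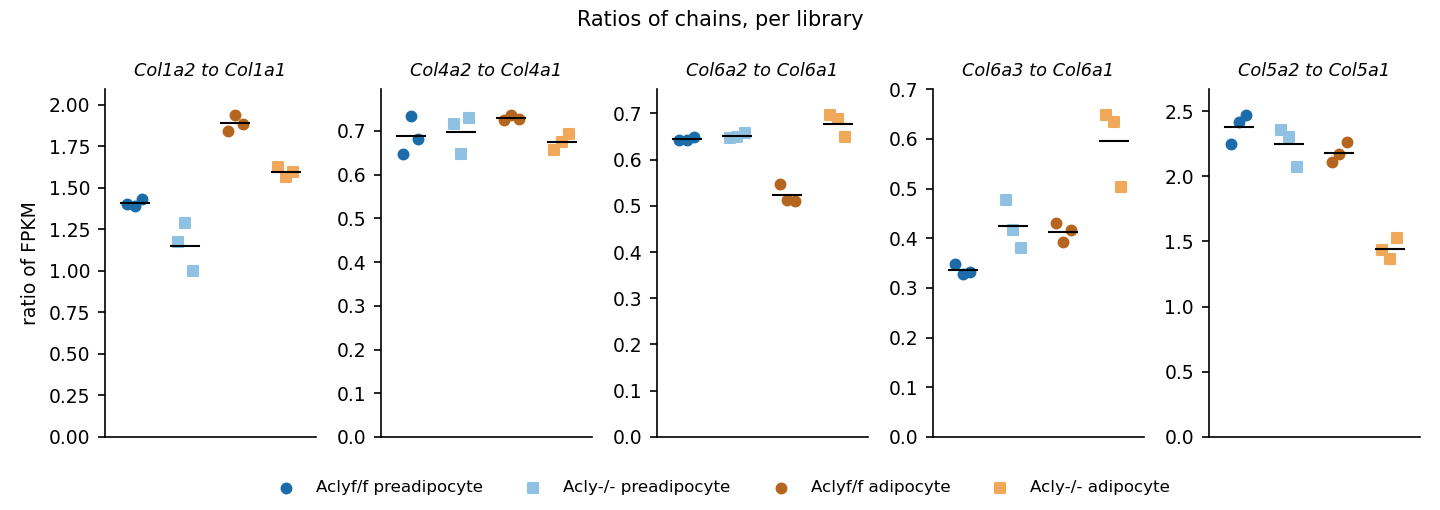
Ratio of FPKM between chains of one collagen type in each library (points) with the group mean (line), 4 groups of 3 libraries per panel, axes from 0. Col4a2 to Col4a1 stays between 0.647 and 0.737, Col6a2 to Col6a1 is lowest in Aclyf/f adipocytes and Col5a2 to Col5a1 is lowest in Acly-/- adipocytes.

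Genes that handle collagen were counted from lists chosen by function, with medians to be read against -0.02 to 0.00 over all genes in these comparisons. None of the tested genes on the lists of receptors, proteases, fibril-binding proteins and TGF-beta signalling passed the filter through 1 group or stage only. On the list of modification 2 did, on that of crosslinking 1 and on that of basement membrane partners 1. Counts and medians of these last lists include such genes, which had to differ, and are to that extent a description. Of 27 tested genes for collagen modification, folding, secretion and propeptide cleavage, 21 fell and 3 rose with differentiation in Aclyf/f cells, and 19 fell and 3 rose in Acly-/- cells. In adipocytes 14 were higher and 1 lower without Acly, and in preadipocytes 6 were higher and 8 lower. P3h2 and Adamts3, which passed the filter through preadipocytes, are counted among the 21 and 19 falls and the 8 lower. Over all genes tested 36.5% rose and 36.0% fell with differentiation in Aclyf/f cells and 30.4% and 31.0% in Acly-/- cells, and without Acly 25.6% were higher and 29.2% lower in adipocytes and 19.7% and 22.4% in preadipocytes. The median was -0.88 with differentiation in Aclyf/f cells and 0.35 between genotypes in adipocytes. Pcolce, which enhances the cleavage of fibrillar propeptides, was at 106 ± 21 FPKM in Aclyf/f and 224 ± 10.5 in Acly-/- adipocytes (1.09, adjusted p = 7.38e-06), and the collagen chaperone gene Fkbp10 at 18.3 ± 2.24 and 37.7 ± 2.4 (1.01, adjusted p = 9.39e-06). Bmp1, a propeptide protease, fell from 105 ± 4.93 to 14.8 ± 1.33 FPKM with Acly (-2.74, adjusted p = 3.76e-12). P3h2, a prolyl hydroxylase that acts on type IV collagen, was at 6.25 ± 0.827 FPKM in Aclyf/f and 1.5 ± 0.051 in Acly-/- preadipocytes (-1.53, with no test since it passed the filter through preadipocytes), and at 0.0807 and 0.0455 in adipocytes, where Col4a1 and Col4a2 were high.

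Of 7 crosslinking genes 6 fell and 1 rose with differentiation in Aclyf/f cells, 4 fell and 1 rose in Acly-/- cells, and 5 were higher and 2 lower without Acly in adipocytes. In preadipocytes 1 was higher and 4 lower. All genes had 72.5% and 61.4% called either way with differentiation (36.0% and 31.0% lower), and 54.8% between genotypes in adipocytes (25.6% higher) and 42.2% in preadipocytes (22.4% lower). The medians were -1.79 for differentiation with Acly and 0.56 between adipocyte genotypes. Lox, a lysyl oxidase, was at 1226 ± 103 and 1210 ± 61.5 FPKM in preadipocytes and at 354 ± 35.1 in Aclyf/f and 1166 ± 74.2 in Acly-/- adipocytes, 3.29-fold higher without Acly (1.72, adjusted p = 6.66e-09). The differentiation change of Lox differed between genotypes by 1.74 (adjusted p = 2.58e-07). Tgm2, a transglutaminase that passed the filter through adipocytes, was at 0.705 and 0.642 FPKM in preadipocytes and at 25.9 ± 0.553 with Acly and 9.38 ± 1.13 without it in adipocytes. It is the 1 gene counted as a rise in either genotype and 1 of the 2 counted as lower in adipocytes.

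Of 5 tested collagen receptors, 3 were higher and 1 lower without Acly in adipocytes and 0 were higher and 4 lower in preadipocytes. With differentiation 1 rose and 3 fell in Aclyf/f cells and 2 rose and 2 fell in Acly-/- cells, with medians of -1.01 and -0.19. Of all genes 25.6% were higher and 29.2% lower without Acly in adipocytes, and 19.7% and 22.4% in preadipocytes. With differentiation 36.5% rose and 36.0% fell in Aclyf/f cells, and 30.4% and 31.0% in Acly-/- cells. Mrc2, an endocytic receptor that takes up collagen, was at 17.3 ± 2.03 FPKM in Aclyf/f and 42.4 ± 2.89 in Acly-/- adipocytes (adjusted p = 1.48e-07). Itga1, the integrin chain of a receptor for type IV collagen, was lower without Acly at both stages, 5.56 against 1.39 FPKM and 6.16 against 2.23 (adjusted p = 1.16e-06 and 6.19e-06).

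The 4 tested collagen-cleaving proteases all fell with differentiation in Aclyf/f cells, while in Acly-/- cells 1 fell and 2 rose. All 4 were lower without Acly in preadipocytes, and 3 were higher in adipocytes (median 1.66). The same calls were made for 36.0% of all genes for a fall with Acly, 31.0% for a fall and 30.4% for a rise without it, 22.4% for lower levels in preadipocytes and 25.6% for higher levels in adipocytes. Mmp14, a membrane-bound collagenase, was at 372 ± 36.5 and 169.8 ± 13.5 FPKM in preadipocytes and 54.8 ± 5.74 and 163 ± 14 in adipocytes. The genotype difference was thus -1.13 before (adjusted p = 1.16e-06) and 1.56 after differentiation (adjusted p = 3.03e-08). The gelatinase gene Mmp2 stood at 70.8 ± 2.27 FPKM on day 0 and 12.6 ± 2.54 on day 4 with Acly, and at 28 ± 2.12 and 44.8 ± 4.49 without it, and fell with differentiation in the first (-2.42) and rose in the second (0.66, adjusted p = 0.000211). Fap, a serine protease of activated fibroblasts, stood at 35.9 ± 4.16 FPKM on day 0 and 1.11 ± 0.158 on day 4 with Acly, and at 6.75 ± 1.79 and 1.6 ± 0.392 without it. Its adipocyte genotypes were not called different (0.29, adjusted p = 0.128). The widest genotype difference of this list in adipocytes was that of Ctsk, at 19.5 ± 1.37 FPKM with Acly and 85.5 ± 4.84 without (2.08, adjusted p = 1.63e-10).

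Among 7 tested proteins that bind fibrils, such as the small proteoglycan Bgn, 7 fell with differentiation in Aclyf/f cells and 5 in Acly-/- cells, none rose in either, and 6 were higher and 1 lower without Acly in adipocytes. In preadipocytes 1 was higher and 4 were lower. The shares of all genes were 36.0% and 31.0% for falls with and without Acly, 25.6% higher and 29.2% lower in adipocytes, and 19.7% higher and 22.4% lower in preadipocytes. The median was -3.11 for differentiation with Acly, -0.73 without, and 0.95 between adipocyte genotypes. Bgn was at 475 ± 20.5 FPKM in Aclyf/f and 1330 ± 75 in Acly-/- adipocytes (adjusted p = 3.85e-09). The 1 that was lower was Dcn, the gene of the collagen-binding proteoglycan decorin, at 86 ± 12.4 FPKM on day 0 and 7.76 ± 1.1 on day 4 with Acly, and at 15.3 ± 2.94 and 3.76 ± 0.284 without it (adjusted p = 0.000133 for the adipocyte difference). The fibronectin gene Fn1 stood at 1744 ± 22.7 FPKM on day 0 and 188 ± 10.8 on day 4 with Acly, and at 2887 ± 208 and 284 ± 55.2 without it and was higher without Acly on both days (adjusted p = 0.000228 and 0.000903).

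Partners of type IV collagen in the basement membrane were counted apart. Of 11 tested, 6 rose and 2 fell with differentiation in Aclyf/f cells, 6 rose and 4 fell in Acly-/- cells, and without Acly 3 were higher and 7 lower in adipocytes and 2 higher and 5 lower in preadipocytes. Among all genes 36.5% rose and 36.0% fell with differentiation in Aclyf/f cells (72.5% called), and 30.4% and 31.0% in Acly-/- cells. Without Acly 25.6% were higher and 29.2% lower in adipocytes, and 19.7% and 22.4% in preadipocytes. The median between adipocyte genotypes was -0.47. The laminin gene Lama4 was at 44 ± 0.148 FPKM in Aclyf/f and 1.19 ± 0.263 in Acly-/- adipocytes (-4.37, adjusted p = 4.53e-12), and Nid2, which links laminin to type IV collagen, at 22 ± 1.25 and 7.54 ± 1 (-1.43, adjusted p = 3.32e-08). Of the type IV genes themselves, Col4a1 was called higher without Acly in adipocytes, by the narrow call given above (293 against 244 FPKM). Col4a2 was not called (197 against 178 FPKM).

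TGF-beta signalling is a known inducer of fibrillar collagen genes. Of 16 tested genes, 12 fell and 3 rose with differentiation in Aclyf/f cells, 7 fell and 3 rose in Acly-/- cells, and without Acly 11 were higher and 1 lower in adipocytes and 2 higher and 5 lower in preadipocytes. Over all genes 36.0% fell and 36.5% rose with Acly, and 31.0% and 30.4% without. Between genotypes 25.6% of all genes were higher and 29.2% lower in adipocytes, and 19.7% and 22.4% in preadipocytes. The median was -0.93 for differentiation with Acly, -0.18 without, and 0.53 between adipocyte genotypes. The 1 lower in adipocytes, named after its value was seen, was Tgfb1, the gene of the ligand TGF-beta 1, at 25.4 ± 1.88 FPKM with Acly and 14.7 ± 1.29 without (-0.75, adjusted p = 2.9e-05). It was also lower in preadipocytes, 16.3 against 20.5 FPKM (-0.32, adjusted p = 0.0194). The ligand gene Tgfb2 was at 20.2 ± 1.08 and 18.6 ± 2.21 FPKM in preadipocytes and 4.93 ± 0.267 and 24.7 ± 1.99 in adipocytes (2.11, adjusted p = 9.86e-10). The targets Tgfbi and Ctgf were 5.69-fold and 4.88-fold higher without Acly in adipocytes (adjusted p = 1.03e-10 and 5.7e-08). A count of higher genes on this list is not a measure of signalling. The part of these genes in the collagen differences was not tested.

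In the genome, Col3a1 and Col5a2 lie tail to tail on chromosome 1, 24624 bases apart, and both fell with differentiation in both genotypes, yet in adipocytes Col3a1 was higher without Acly (0.56) and Col5a2 was not called (0.01). Col4a6 and Col4a5 lie head to head on the X chromosome, 1274 bases apart, with Col4a6 at no more than 0.111 FPKM. In RefSeq Col4a1 and Col4a2 overlap by 85 bases and Col18a1 overlaps Slc19a1, so that part of their reads may be shared.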

How the data were processed

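RNA-seq of 12 libraries (3 per group) was used from 1 deposited table of FPKM values per gene made by the authors with bcl2fastq, Bowtie2 2.2.6 and Cufflinks 2.2.1 on mm10, per the submitters' processing notes, which give no role or order; filter, annotation and strand setting: not given in the sources used here. Its lowest value is 0.01. Depth, 7116000 to 13720000 fragments, was estimated from the steps between low values, and its error is unknown.

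Groups were taken from the labels. Genes at 1 FPKM or more in at least 3 libraries were tested on log2(FPKM + 1), which understates changes of low genes, with limma 3.58.1 (R 4.3.3), 4 group means and a variance trend in 1 fit, Benjamini-Hochberg adjustment over all 11777 genes, and a call at an adjusted p under 0.05. Every adjusted p is from limma. Fold changes are ratios of mean FPKM, and signed differences are log2(FPKM + 1). The procedure was tested on simulated data. Tables and figures used matplotlib 3.10.9, pandas 2.3.3, scipy 1.17.1 and numpy 2.4.6 under Python 3.11.15.

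Every fibrillar, type IV and type VI gene was named, others where tested. Values of each library were given for the 10 genes of highest mean and the 4 largest called changes per comparison. Col7a1 and Col8a2 entered through their calls in preadipocytes, although they are described without a test. Up to 3 called genes per functional list and comparison were named, with group means or folds. Members, lists and this rule were chosen with earlier results of these data known. Counts were also made without the genes that passed the filter through 1 group or stage only, a choice made after the data were seen. Alternatives were other pseudocounts, filters, scalings, a replicate block, no variance trend, fits of single contrasts, and leaving out each library. Class sums and ratios have no test.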

Additional observations from a re-analysis of the deposited data

Results flagged for a closer look

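The change from day 0 to day 4 differed between Acly-/- and Aclyf/f cells for 13 collagen genes, by a test of the difference itself in limma. The difference, Acly-/- minus Aclyf/f on the log2(FPKM + 1) scale, was 1.19 for Col6a2, 1.02 for Col6a3, 0.96 for Col1a2, 0.91 for Col8a1, 0.90 for Col1a1, 0.84 for Col6a1, 0.74 for Col8a2, 0.73 for Col12a1, 0.67 for Col5a1, 0.66 for Col24a1 and 0.57 for Col3a1. It was negative for Col18a1 (-0.55) and Col7a1 (-0.74). Col8a2, Col24a1 and Col7a1 passed the filter on low values only through the group or stage where they were high, so their values are a description. For these 3 and Col18a1 the adipocyte levels were not called different between genotypes. Among all genes tested 50.2% passed the same test.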

How the results depend on the processing

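Among the 23 tested collagen genes, calls for differentiation in Aclyf/f cells were the same under all 11 alternatives and all 12 omissions of a library that tested them, and no result reversed. For Acly loss in preadipocytes the 7 genes called higher became 4 with a filter of 5 FPKM, with libraries rescaled to the same FPKM sum and with rescaling to the same sum of genes other than collagens, and the 4 called lower became 8 without a filter and 2 with the 5 FPKM filter. That filter also left 1 of the 2 negative differences between the differentiation changes; it tests fewer genes. With the 5 genes that passed the filter only through 1 group or stage left aside, a setting chosen after seeing the data, 2 genes were lower in preadipocytes and 1 difference was negative; fewer genes are then counted. Rescaling to the same FPKM sum moved the type VI sum of Aclyf/f preadipocytes from 2050 to 2109 and the sum of other classes in Acly-/- preadipocytes from 298 to 288.6. The cause was not tested for the other settings. Leaving out 1 library gave 5 to 7 higher and 3 to 5 lower for Acly loss in preadipocytes, 11 to 12 and 2 to 3 in adipocytes, 14 to 15 lower for differentiation with Acly, 6 to 7 and 12 to 13 without, and 10 to 13 positive and 2 to 3 negative differences between both.

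Deviations of same-numbered libraries correlated at -0.41 to 0.15 over 18 pairs. A library correlated best with its own number in 10 of 36 cases, all of them between stages of a genotype and none across genotypes. Between stages of a genotype, same-numbered libraries correlated at 0.135, -0.029 and 0.091 (Aclyf/f) and 0.123, 0.147 and 0.124 (Acly-/-). Different-numbered ones did so at -0.144 to 0.089 (Aclyf/f) and -0.154 to 0.022 (Acly-/-). Every Acly-/- library thus correlated best with its own number at the other stage, as did most but not all Aclyf/f libraries. Across genotypes, same-numbered libraries correlated at -0.414 to -0.048. Pairing of day 0 and day 4 within a genotype is thus not excluded, yet the tests treat libraries as unpaired. No fit with pairing within a genotype was run. A replicate block by number was shared by both genotypes, so it does not model pairing within a genotype. With that block, 6 genes were higher and 4 lower for Acly loss in preadipocytes, 11 and 2 in adipocytes, 6 and 15 for differentiation with Acly, 6 and 13 without, and 11 and 2 for the difference. Levels under about 0.3 FPKM rest on 2.13 fragments per kilobase or fewer in the shallowest library.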
